A study of Picea abies with 19 samples.

Results

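The 100 array features described here were selected on their age difference in the roots of Norway spruce (Picea abies) cuttings, out of 32144 features on the array that carry a spruce probe. A feature qualified if its raw median signal exceeded the local background median by more than 2 background standard deviations on all 6 arrays of 18-month roots of genotypes 20, 35 and 52. This was met by 9425 features. Features above background on all 19 arrays of the study, 2613 in number, were then left out, which left 6812 candidates. The candidates were ranked by the difference between 18 and 5 months, averaged over the 3 genotypes, and the 100 highest were kept. The age difference and every level on those 10 arrays therefore chose the members and are given below as a description, with no test. The files name the features by number and give neither gene names nor probe sequences, so no function could be read for any member, and the identity of the tissue could not be checked against marker genes.

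Adventitious roots are roots that form on the stem base of a cutting rather than from a seedling's radicle. The root end of a conifer holds the cap, the meristem and young absorbing tissue, and its short side roots are where mycorrhizal fungi colonise the plant. As a root system ages it branches, and older tissue behind the tip becomes lignified and suberised while new tips are formed. An array of a root end reads the mixture of all these cells, and fewer cells of a type and less RNA per cell cannot be told apart in it.

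The study hybridised amplified RNA, labelled with a single Alexa dye, from 19 root samples to 1 array each. Of these, 15 came from roots collected 18 months after adventitious root initiation and 4 from roots at 5 months. Sample titles divide the 8 genotypes into fast (15, 18, 20 and 35) and slow (52, 61, 70 and 76), and the labels do not state which trait was fast or slow. Each sample was a pool of several root ends of 1 genotype, grown in peat in a nursery with mineral fertiliser and collected in early autumn. At 18 months there were 2 arrays for each genotype except genotype 15, which had 1. At 5 months there was 1 array of genotype 20, 1 of genotype 35 and 2 of genotype 52, and these are the 4 that entered the age difference. The other 5 genotypes (15 and 18, fast, and 61, 70 and 76, slow) gave 9 further 18-month arrays that the ranking did not use. They entered the choice only in that a feature above background on all 19 arrays was left out. A genotype is a clone here, so its arrays do not sample other trees of the same class.

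Several arrays stood apart or went against their labels. The authors' deposited table of log2 values and the scanner files disagreed on which sample is which. Over the spruce features, 11 of the 19 scanner files matched a table column at a correlation of 0.855 to 0.940 across features, and all 11 of these columns bore the name of another genotype. Of the 10 arrays behind the age difference, 7 had such a match. For 1 of the 18-month arrays of genotype 20 and 1 of the 5-month arrays of genotype 52 the matching column bore the other age. The same held for 2 of the unused 18-month arrays, array 1 of genotype 18 and array 2 of genotype 76, whose matching columns are named for 5-month samples. The age and genotype of the unused arrays in the tests below thus also rest on the scanner files' labels. Results below follow the labels of the scanner files, and values without those 2 arrays or from the table are given where they bear on a result. The second array of genotype 76 had 4944 features above background and was the least like the others, and the columns of the first array of genotype 76 name another scanner channel than those of the other files.

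Signals below are log2 net intensities (spot minus background, floored at 50 units), less the array's median over the 2613 features detected everywhere. On this scale 0 is the level of a typical feature that is seen on every array, and no feature's level can be set against another's, since each is a different probe. Precision is limited by the number of arrays. The local background was lower on the 6 qualifying 18-month arrays than on the 5-month arrays. Its standard deviation, as a median over spots, lay between 28.1 and 117 units on the former and between 170 and 201 on the latter, so that a spot had to be brighter to pass on the 5-month arrays. The number of spruce features above background was 11494 to 18498 on the qualifying 18-month arrays, 8848 to 11228 at 5 months and 4944 to 15427 on the other 18-month arrays. The part of this in the age difference was not tested.

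The median member lay below 0 on the 18-month arrays, as did the median candidate. The members' mean level over the 6 qualifying 18-month arrays ran from -3.34 to 4.18 with a median of -1.73, close to the median of -1.96 for all candidates. On the single arrays, the median member stood between -1.90 and -1.52 on the 6 qualifying 18-month arrays. It stood at -2.45 at 5 months in genotype 20, at -5.17 in genotype 35, and at -3.52 and -3.22 on the arrays of genotype 52. The 5-month array of genotype 35 was thus the lowest of the 4, and that of genotype 20 came nearest to the 18-month arrays. The median candidate, by contrast, stayed between -2.17 and -1.89 on all 4 5-month arrays.

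**Figure D1:**
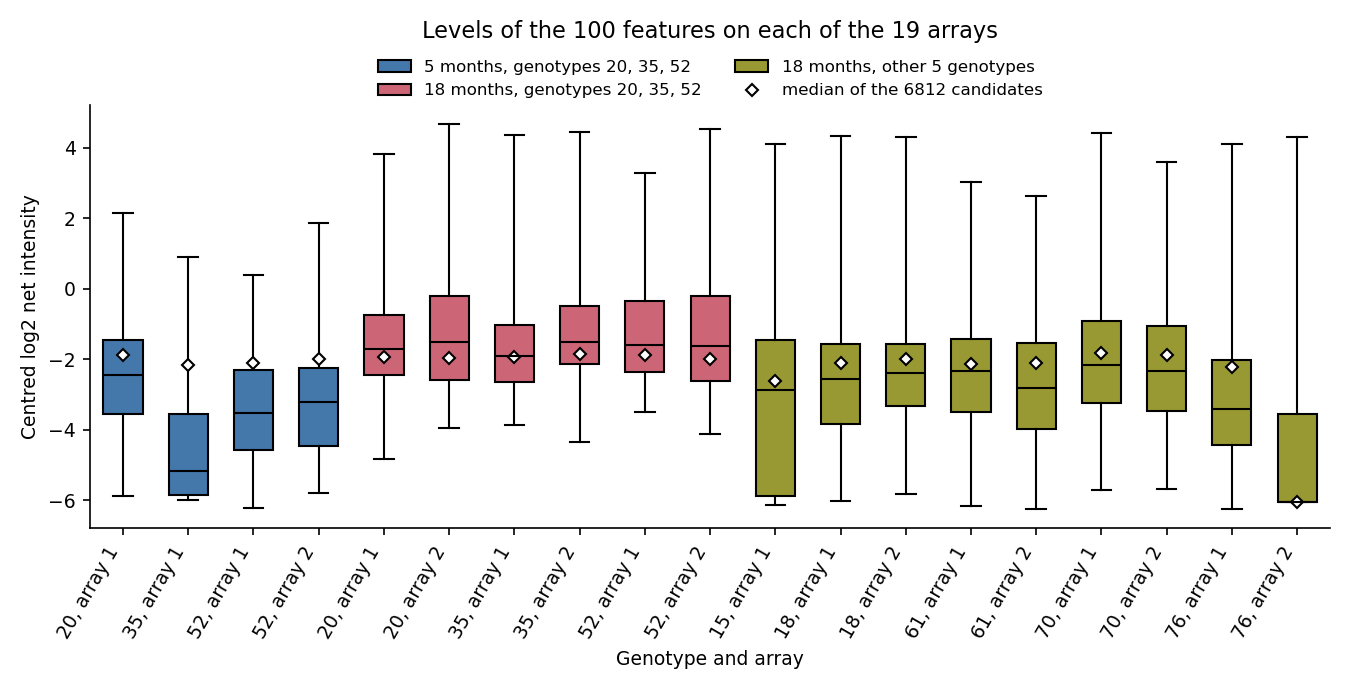
Centred log2 net intensity of the 100 features on each of the 19 arrays, with boxes for the middle 50%, a line at the median and whiskers to the lowest and highest feature. White diamonds give the median of the 6812 candidates on the same array. The 5-month array of genotype 35 has the lowest member median among the 5-month arrays, at -5.17, and array 2 of genotype 76 the lowest at 18 months, at -6.04.

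The mean age difference of the members lay between 1.65 and 6.12 on the log2 scale, with a median of 1.88, against a median of 0.20 over all candidates. These are differences of measured values, and their size is nominal in the 90 members that were not above background on at least 1 5-month array. The mean difference exceeded 3 in 3 members and 2 in 37. The lower edge of the list was not a gap: Spruce_10152 and Spruce_10862, the first and last of the 5 lowest members, had 1.66 and 1.65, while Spruce_28073 and Spruce_01345, the first and last of the 5 just outside, had 1.64 and 1.62. Both sides of the edge hold features with a negative difference in genotype 20, such as Spruce_05158 inside, with -0.31, and Spruce_09597 outside, with -0.50.

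The 3 genotypes did not contribute evenly. The median difference of the members was 1.05 in genotype 20, 3.09 in genotype 35 and 1.89 in genotype 52, where the candidates had 0.00, 0.29 and 0.23. Genotype 35 gave the largest of the 3 differences for 73 members, genotype 52 for 20 and genotype 20 for 7. All 100 members were higher at 18 months in genotype 35, 98 in genotype 52 and 84 in genotype 20. The direction was shared by all 3 genotypes in 82 members, and 44 exceeded 1 in each. Ranked in a single genotype, 50 members would have been among the 100 highest of genotype 35, 28 of genotype 52 and 19 of genotype 20. Leaving genotype 35 out of the average kept 40 of the 100 members, and leaving out genotype 20 or genotype 52 kept 55 or 53.

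The weight of genotype 35 rests on 1 array. Without the single 5-month array of genotype 35, which takes the genotype out of the average, the members' median difference was 1.48. The rule applied without that array kept 48 of the 100 members. It kept 63 without the 5-month array of genotype 20 and 63 without the second of genotype 52, and between 67 and 82 without any other array. Without the 2 arrays whose table match bore the other age it kept 51, although the median difference of the original members was then 1.94. The only repeat at 5 months was the pair of genotype 52, whose arrays differed by a median of 1.52 for the members and of 0.77 for the candidates. The difference of genotype 52 was larger than the gap between those arrays in 55 members. At 18 months the pairs of genotypes 20, 35 and 52 were closer, with median gaps of 0.72, 0.63 and 0.68 over the members. All 6 qualifying 18-month arrays lay above all 4 5-month arrays in 21 members, where 1.24% of the 16012 features in the fits did so, but this is the contrast that chose the members and nothing is read from it.

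**Figure D2:**
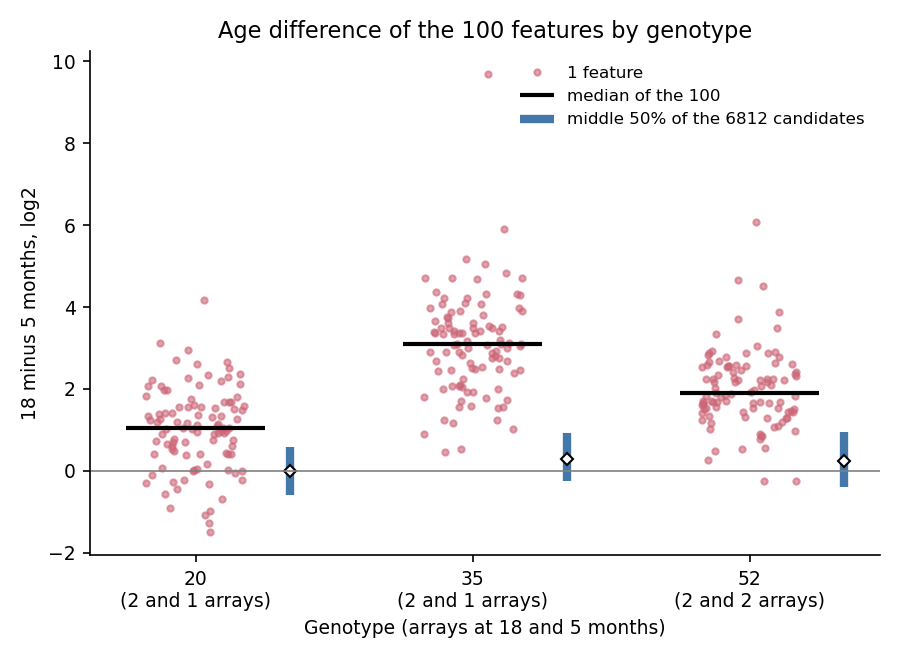
Age difference, 18 minus 5 months on the log2 scale, of the 100 features in genotypes 20, 35 and 52, 1 point per feature, with a line at the median. Blue bars and diamonds give the middle 50% and the median of the 6812 candidates. Genotype 35 has the highest median, 3.09, and in genotype 20, with 1.05, 16 points lie below 0.

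Spruce_02805 headed the list with a nominal mean difference of 6.12, which includes 5-month arrays that were not above background. At 18 months it read 3.83 and 4.67 in genotype 20, 4.35 and 4.45 in genotype 35, and 3.28 and 4.53 in genotype 52. At 5 months it read 1.64 in genotype 20, was not above background in genotype 35 at -5.30, and in genotype 52 was not above background on array 1, at -6.19, and at 1.85 on array 2. The 4 5-month arrays thus fell into a bright and a dark pair, and both arrays of genotype 52 did not agree. On the 9 unused 18-month arrays this feature was above background throughout, from 2.64 to 4.42 with a median of 4.10, so all 15 18-month arrays lay above all 4 5-month arrays. It was at the scanner maximum on 3 of the 19 arrays.

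Spruce_02899, next in rank, was above background on none of the 5-month arrays. At 18 months it read -1.34 and -1.90 in genotype 20, -1.12 and -0.53 in genotype 35, and -1.69 and 0.33 in genotype 52. The 5-month arrays read -3.99 in genotype 20, -5.99 in genotype 35, and -6.22 and -4.43 in genotype 52. All 6 18-month values lay above these. The feature was at least 5.83-fold higher at 18 months, taking for each dark array the higher of the dimmest signal still above background and the feature's own value. The limit varied from spot to spot, so this and the other such folds below are approximate bounds. On the unused arrays it was above background on 3 of 9, in genotypes 15, 61 and 70 on 1 array each, and not on either array of genotypes 18 or 76.

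Spruce_09165, which followed, had similar differences in the 3 genotypes, 3.12 in genotypes 20 and 35 and 3.87 in genotype 52. At 18 months it read -1.19 and 1.72 in genotype 20, 1.66 and 2.17 in genotype 35, and -0.99 and 0.04 in genotype 52. At 5 months it was not above background in genotype 20, at -2.85, nor on array 1 of genotype 52, at -5.75, and read -1.21 in genotype 35 and -2.95 on array 2 of genotype 52. These 18-month values and the 5-month values did not overlap but nearly met. The lowest of the former, in genotype 20, was next to the highest 5-month value, in genotype 35. The feature was above background on 8 of the 9 unused arrays, with a median of -0.85 over the 9. Array 1 of genotype 18, at -2.41, and the arrays of genotype 76, at -1.40 and -3.86, read below the highest 5-month value.

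The rest of the first 10 divided by how they looked at 5 months. Spruce_16820, Spruce_22356, Spruce_05358 and Spruce_03947 were dark on all 4 5-month arrays, with 18-month means of -1.87, -2.87, -1.70 and -2.92. Their differences were at least 3.18-fold, 1.63-fold, 3.21-fold and 1.59-fold, since features this close to background leave little room below them. Spruce_09775 and Spruce_11820 were dark on the genotype 35 array alone, and Spruce_22416 was above background in genotype 20 alone.

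The mean of Spruce_11820 drew most on genotype 35. In genotype 35 it read -0.99 and -1.21 at 18 months and -5.79, not above background, at 5 months. In genotype 52 it read 1.61 and 2.26 at 18 months against 0.40 and 1.68 at 5 months, and in genotype 20 it went from -2.24 to 0.08 and 0.03. Genotype 52 at 5 months was therefore brighter than genotype 35 at 18 months, and the feature was above background on all 9 unused arrays, between -0.08 and 2.87.

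**Figure D3:**
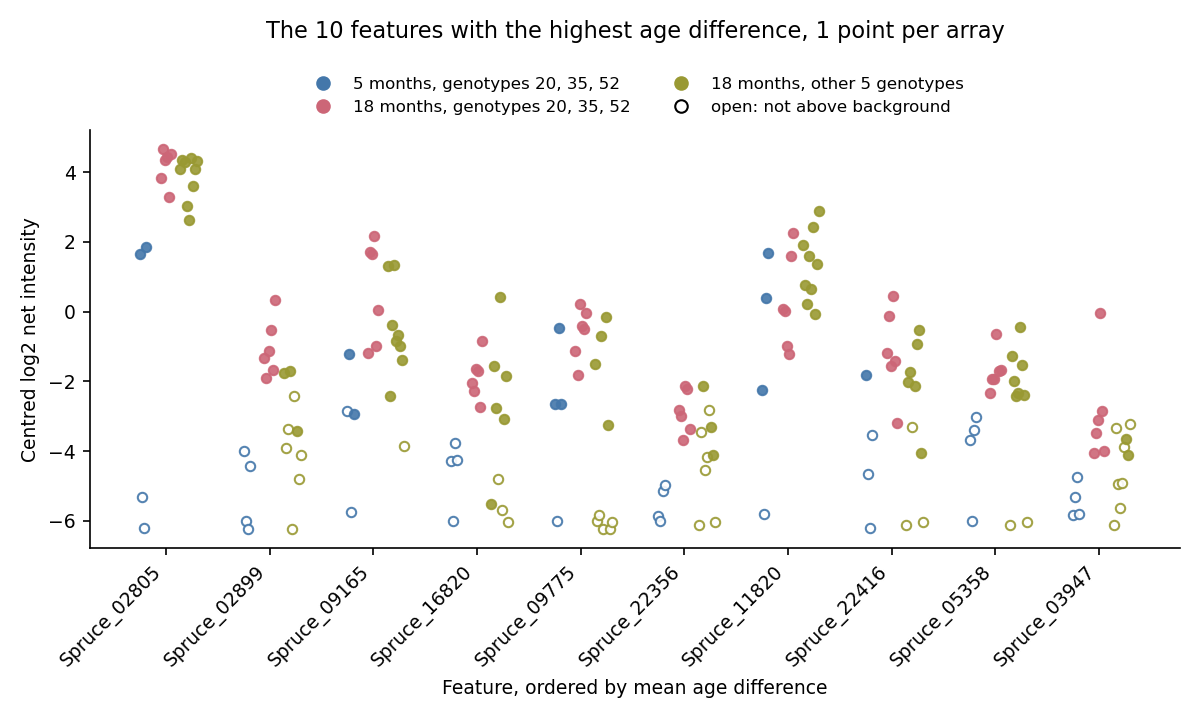
Centred log2 net intensity of the 10 highest-ranked features, 1 point per array, for the 5-month arrays, the 6 qualifying 18-month arrays and the 9 other 18-month arrays. Open points are not above background. Spruce_02805 is filled on all 15 18-month arrays, while Spruce_09775 is open on 5 of the 9 other 18-month arrays and on 1 5-month array.

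Few members were new detections in the full sense of being dark at 5 months. Of the 100, 18 were above background on none of the 4 5-month arrays, 30 on 1, 25 on 2, 17 on 3 and 10 on all 4. Over all candidates, 2.11% were above background on none and 53.2% on all 4. The commonest pattern, in 19 members, was a signal in genotype 20 alone. On the 5-month array of genotype 35, 82 members were not above background, as against 24.8% of the candidates, and 22 were at the floor. The word gained thus applies at most to 18 members, and the other 82 were higher at 18 months on average but present on at least 1 array of young roots. A spot had to be brighter to pass on the 5-month arrays, and the part of this in the 18 was not tested. For those 18 the difference was at least 1.09-fold (Spruce_08488) to 5.83-fold (Spruce_02899).

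Some members ran against the average in 1 genotype. Spruce_13813, with the smallest difference in genotype 20 (-1.50), read 2.15 at 5 months and 0.28 and 1.01 at 18 months there. In genotype 35 the same feature went from -4.23, not above background, to 0.54 and 1.12. In genotype 52 it read -5.52, not above background, and -0.52 at 5 months, and 1.06 and -3.35 at 18 months, so the arrays of that genotype overlapped. Spruce_18974 had the largest difference in genotype 20 (4.18), from -5.86, not above background, to -1.61 and -1.75. In genotypes 35 and 52 its difference was only 0.53 and 0.53. Spruce_04434 had the smallest difference in genotype 52 (-0.26) and owed its place to genotype 35 (4.70), and Spruce_10862 had the smallest in genotype 35 (0.46) and 3.34 in genotype 52.

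The arrays had been scanned on 9 days in 3 periods. Both 18-month arrays of genotype 35 were scanned in the first period and its 5-month array in the second, so age and scan period cannot be told apart in the genotype with the largest differences. Within the first period alone, the members' median difference was 0.93 in genotype 20 (1 array at each age, 87 members higher at 18 months) and 1.92 in genotype 52 (2 arrays against 1, 94 higher). Over the candidates the same comparisons gave 0.03 and 0.15, with 51.1% and 56.2% higher at 18 months. These are arrays that chose the members, so the values are a description. Against the 5-month array of genotype 52 from the second period the median was 2.08. For the 18-month array of genotype 20 from the second period it was 1.14.

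Members were not spread evenly over the array, which carries 48 print blocks. Blocks 1 to 16 held 50 of the 100 members but 26.9% of the candidates, and blocks 4, 7 and 8 together held 24 members among 252 candidates. In the same place the age difference of features above background on all 19 arrays, which cannot be members, was raised too. In blocks 1 to 8 their median difference was 0.39 in genotype 20, 0.80 in genotype 35 and 0.58 in genotype 52. In blocks 25 to 32 it was -0.11, -0.21 and 0.11. When each array was centred on the 19-array features of the same block, a setting chosen after seeing the data, the members' median difference was 1.83 and the rule kept 68 of the 100. The part of array position in the difference of any 1 member was not tested.

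**Figure D4:**
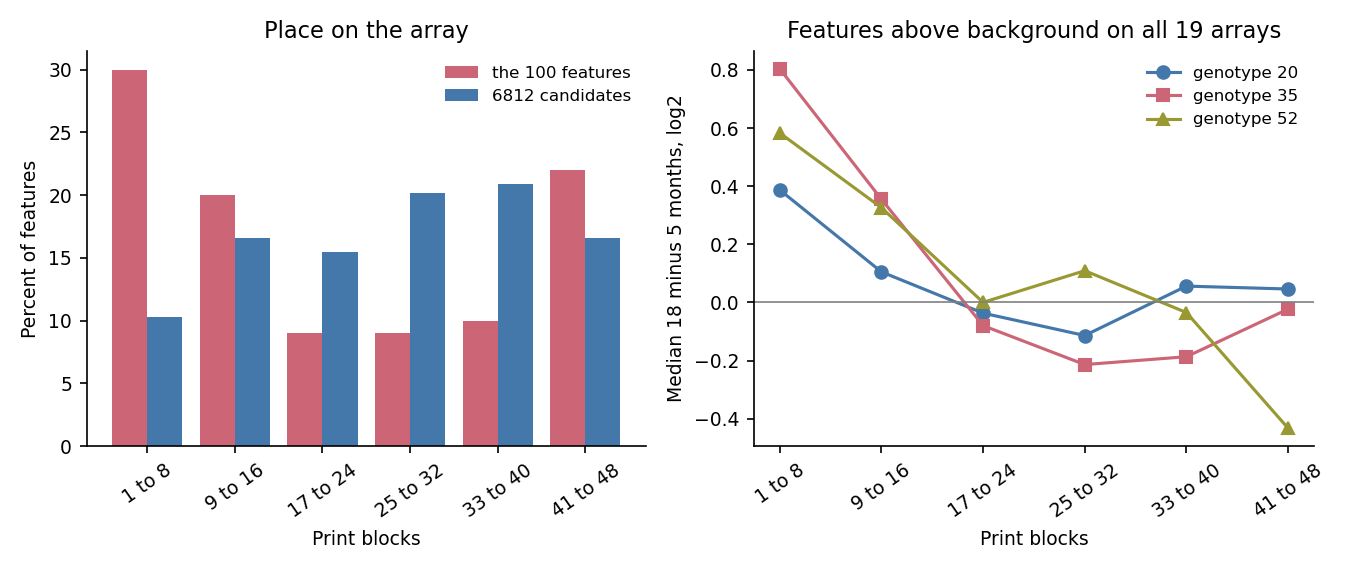
Left, percent of the 100 features and of the 6812 candidates in each band of 8 print blocks. Right, median age difference on the log2 scale of features above background on all 19 arrays in the same bands, for genotypes 20, 35 and 52. Blocks 1 to 8 hold 30 of the 100 features and 10.3% of the candidates, and there the median age difference is highest in all 3 genotypes.

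The 9 18-month arrays of genotypes 15, 18, 61, 70 and 76 show how bright the members were in 18-month roots that did not rank them. They were dimmer there. The median member lay at -1.60, -1.69 and -1.61 in genotypes 20, 35 and 52, which chose it. In the others it lay at -2.21 in genotype 70, -2.48 in genotype 18, -2.68 in genotype 61, -2.86 in genotype 15 and -4.33 in genotype 76. The arrays of genotypes 18 and 61 overlapped, those of genotype 61 reading -2.34 and -2.80. The arrays of genotype 70 lay just above, at -2.15 and -2.32, and the single array of genotype 15 just below. Both arrays of genotype 76 lay below those of the other 4. Its first array read -3.42, where the median candidate read -2.21. On its second array the median member and the median candidate both read -6.04, and 20 members were above background. The candidates as a whole had -3.56 in genotype 76 and -2.63 to -1.90 in the other 4.

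The members' level in these genotypes fell between the levels of the young and the older roots that chose them. For the median member, the median of the 9 unused arrays stood at 0.375 of the distance from the 5-month to the 18-month mean. It was above the 5-month mean in 79 members, against 42.1% of the candidates, and below the 18-month mean in 95, against 66.8%. The ranking took features whose values on these 10 arrays were high at 18 months and low at 5 months, and the part of that selection in the shift was not tested.

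Detection on the unused arrays varied widely among members. The median member was above background on 6 of 9 arrays and the median candidate on 7. Only 9 members were above background on all 9, where 17.9% of all features in the fits were, a share that includes the features the choice left out. Among the candidates the share was 2.69%, which the choice holds down, since a candidate above background on all 4 5-month arrays had to miss an unused one. As many as 30 were above background on at most 4, against 8.76% of the candidates. None of the 18 members that were dark at 5 months was above background on all 9. In 51 members at least 1 of the 5 genotypes had no array above background, against 21.9% of the candidates.

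**Figure D5:**
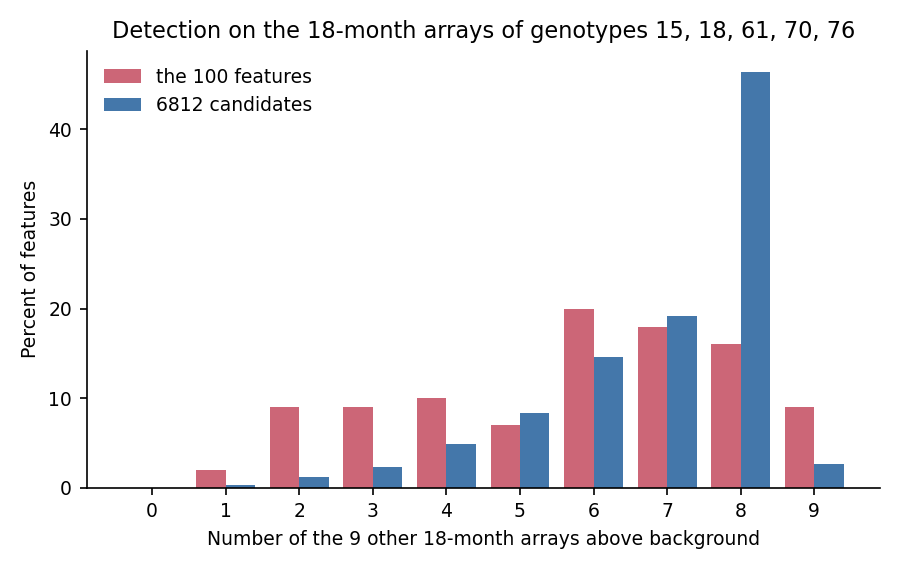
Percent of features (y axis) by the number of the 9 18-month arrays of genotypes 15, 18, 61, 70 and 76 on which they were above background (x axis), for the 100 features and the 6812 candidates. Of the 100, 30 were above background on 4 arrays or fewer, and the candidates peak at 8 arrays.

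The 9 members above background on all 15 18-month arrays had to be dark on at least 1 5-month array to be chosen. They are named here after their values were seen: Spruce_02805, Spruce_11820, Spruce_28855, Spruce_08634, Spruce_20753, Spruce_30249, Spruce_13053, Spruce_18974 and Spruce_25093. In 8 of them the dark array was, alone or with another, that of genotype 35, and in Spruce_18974 it was that of genotype 20. Spruce_28855 read -0.86 and -0.99 in genotype 20, -1.94 and -1.55 in genotype 35, and -1.05 and -0.20 in genotype 52 at 18 months. At 5 months it read -2.49 in genotype 20 and -1.37 on array 1 of genotype 52, and was dark in genotype 35 and on array 2 of genotype 52, at -5.47 and -3.83. Its unused arrays ran from -2.60 to -0.88, so they overlapped the brighter 5-month arrays. Spruce_20753 was brighter in genotype 20 at 5 months, at 0.75, than at 18 months, at -0.16 and -0.28, and its unused arrays ran from -0.55 to 3.18. Of these 9 members only Spruce_02805 had all its 18-month arrays above all its 5-month arrays.

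The 10 members above background on all 4 5-month arrays are those for which both ages were measured in full, and their differences need no bound. They were Spruce_03440, Spruce_30173, Spruce_19507, Spruce_22711, Spruce_29785, Spruce_30044, Spruce_21980, Spruce_13020, Spruce_17134 and Spruce_10862, named after their values were seen. Their mean differences ran from 1.65 to 2.00, none among the first 36 ranks, and all 10 were higher at 18 months in each of the 3 genotypes. In Spruce_22711 the 3 genotypes gave 1.69, 2.23 and 1.70, and in Spruce_13020 they gave 1.53, 1.56 and 1.91. In both, the lowest of the 6 qualifying 18-month arrays, at -1.49 and -1.11, lay above the highest 5-month array, at -2.06 and -1.36. This is the contrast that chose the members. Their medians over the unused 18-month arrays, -1.815 and -1.075, were also above it, but single unused arrays were not. Spruce_22711 read -4.63 in genotype 15, and Spruce_13020 read -2.58 on array 1 of genotype 18. In Spruce_21980 the arrays overlapped, with a lowest value of -2.25 on the qualifying 18-month arrays and a highest 5-month value of 0.12.

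On the unused arrays, 2 members were above background on 1 of 9 and 9 on 2 of 9. Described here are the 2 and the 3 highest in rank of the 9, and all were above background in genotypes 20, 35 and 52 because the rule required it. Spruce_15918 read between -3.79 and -2.60 on the 6 qualifying 18-month arrays, and on the unused arrays it was above background only on array 2 of genotype 70, close to its limit of detection. Spruce_20610 read between -3.81 and -1.67 on the former and was above background only in genotype 15 on the latter, at -4.40. Spruce_30435 read -2.67 and -2.31 in genotype 20, -1.42 and -1.28 in genotype 35, and -1.83 and -1.88 in genotype 52. On the unused arrays it passed on array 1 of genotype 61, at -2.10, and on array 2 of genotype 70, at -2.71. Spruce_04243 and Spruce_03947 also passed on 2 unused arrays each. The 18-month mean of Spruce_30435, -1.90, was near the candidate median, and those of the other 4 were lower, from -3.17 to -2.82.

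Differences among the 5 unused genotypes were tested with limma on log2 values after background correction and quantile normalisation, over the 16012 features above background on at least 4 arrays. Of these features 0 (0.0%) passed an adjusted p of 0.05 in limma's F test, and so did 0 members. At an unadjusted p under 0.05 there were 35 members, where 1149 features (7.18%) passed in all and 9.04% of the candidates. Of the 100 candidates with the lowest age differences, 8 did. The span between the highest and lowest genotype mean had a median of 2.27 over the members and 1.40 over all features tested. In no member did the difference pass the adjustment. Members and features at large are not like sets, since each member passed the filter through the 6 qualifying 18-month arrays. The 16012 also hold the 2613 features above background on all 19 arrays, which cannot be members. The candidates met the same conditions, but the members were also ranked on their age difference. The part of that choice in the count of members with a low p was not tested. With scan period as a term the count was 22 members, against 3.58% of all features. Without array 1 of genotype 76 it was 53 members, against 38.0% of all features.

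Spruce_16588 had the lowest p of the members for genotype, 5.5e-05, with an adjusted p of 0.126 in limma. It read 0.02 in genotype 15, -0.88 and -1.54 in genotype 18, and -1.41 and -1.33 in genotype 61. It was not above background on either array of genotype 70, at -5.70 and -5.68, or of genotype 76, at -5.63 and -6.04. The arrays of each genotype agreed, and the mean of genotypes 15, 18 and 61 was at least 8.60-fold that of genotype 70 and at least 8.94-fold that of genotype 76. In the genotypes of the rule it read -0.18 and 0.07 in genotype 20, -2.17 and -2.74 in genotype 35, and -1.71 and -1.70 in genotype 52.

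Spruce_01380 split the genotypes differently. It read 0.38 and 1.29 in genotype 70 and was not above background in genotypes 15 and 76, at -6.12, -6.24 and -6.04. The difference from genotype 76 was at least 28.9-fold. From genotype 15 it was nominally 124-fold, on a single array where the feature and the dimmest signal above background were both at the floor. Genotypes 18 and 61 were above background on 1 array each. Its adjusted p in limma was 0.199, and its 5-month values of 1.32 in genotype 20 and 0.91 in genotype 35 lay within the range of its 18-month values. Spruce_22387 read -0.88 in genotype 15 and was not above background on the arrays of genotypes 18 and 61, a difference of at least 5.11-fold and 10.7-fold, with an adjusted p of 0.313 in limma.

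With other sets of genotypes some members passed. Over all 8 genotypes at 18 months, limma called 92 of 16012 features (0.575%) and 5 members, but this fit holds arrays that chose the members. The 5 were Spruce_16588, Spruce_01380, Spruce_22387, Spruce_08576 and Spruce_07587, with adjusted p from 0.0022 to 0.0462, named after their values were seen. Without genotype 76, the fit to genotypes 15, 18, 61 and 70 called 48 features (0.3%) and 3 members. These were Spruce_16588, Spruce_21980 and Spruce_13813, each with an adjusted p of 0.0356 in limma, also named after their values were seen. Without array 1 of genotype 76, that genotype rested on array 2 alone, the array least like the others. The median span of genotype means was then 2.60 over the members and 1.88 over all features. Without array 2 instead it was 2.28 and 1.20.

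The fast and slow classes were compared over the means of the 5 unused genotypes (15 and 18 against 61, 70 and 76). Of 16012 features, 0 (0.0%) passed an adjusted p of 0.05 in limma and 190 (1.19%) had an unadjusted p under 0.05. Of the members 0 passed and 1 had an unadjusted p under 0.05. That count was 12 with scan period as a term and genotype as a random block (5.10% of all features), 12 in the authors' deposited table (2.35%), 5 over all 8 genotypes (2.46%), 5 without genotype 76 (2.09%) and 1 to 3 without single arrays. The median slow minus fast difference was 0.06 over the members, with 54 higher in the slow class, against -0.05 over all features tested. The 1 member was Spruce_16588, lower in the slow class by a fitted -2.97 ± 0.99 (SE, 95% interval -5.23 to -0.72, adjusted p of 1.00 in limma). Its split ran through the slow class, since genotype 61 was bright and genotypes 70 and 76 dark. In the authors' deposited table its slow minus fast difference was 0.72, of the other sign. Spruce_13379 and Spruce_10142 came next, at -1.53 ± 0.73 and -1.20 ± 0.59 (SE), with intervals that include 0. Both kept their sign in the table. With 2 genotypes against 3, intervals of this width leave sizeable class differences possible.

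Scan period was compared within genotypes 61 and 70, which each had 1 array in the first and 1 in the second period. Of 16012 features 0 (0.0%) passed an adjusted p of 0.05 in limma and 226 (1.41%) had an unadjusted p under 0.05, among them 4 members. That count of members was 22 in the authors' deposited table (4.79% of all features) and 10 in an unplanned fit without genotype 76 (4.45%). It was 9 over all 18-month arrays (4.70%) and 3 with scan day as a number (1.66%). Spruce_09775 had the lowest p, with a difference of -3.68 ± 0.70 (SE, second minus first period, adjusted p of 0.726 in limma). It read -0.69 and then -6.24 in genotype 61, and -0.16 and then -3.24 in genotype 70. The 5-month pair of genotype 52 ran the other way, at -2.65 in the first and -0.47 in the second period, and the 18-month pair of genotype 20 read -1.13 and -1.81. Spruce_16820 and Spruce_11497 went the other way, higher in the second period by 3.06 ± 1.02 and 3.42 ± 0.96 (SE). In the authors' deposited table the difference of Spruce_09775 was 0.68, of the other sign, while Spruce_16820 and Spruce_11497 kept their sign.

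In the authors' deposited table the members' age difference was no higher than that of the candidates. Grouped by the table's own column names, the members' median age difference was 1.43, with 92 members above 0. All candidates had 1.51, with 97.9% above 0. By genotype the table gave 0.81 in genotype 20, 0.34 in genotype 35 and 3.37 in genotype 52, against 1.23, 0.26 and 3.10 for the candidates. The order of the genotypes thus differed between the table and the scanner files.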

How the data were processed

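Deposited scanner files, 1 per array, hold intensity values per the file headers: spot and local background medians, background standard deviations and the net median for 34992 spots, of which 2848 are controls, with no normalisation. The deposited table holds log2 values of the authors. No label or header states its steps; its values are floored at 0 and its column medians differ, and 0 of its columns lacked a sample. Its scale, centring and labels stay partly unknown.

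The members were chosen by the rule in the report, at a floor of 50 units. Members, lists and tests were chosen with earlier results of these data known. The named features were those at ranks 1 to 10 and 96 to 105, the extremes of each genotype, those on the fewest unused arrays, and the 3 lowest p of each test. The main tests used the 9 unused 18-month arrays, and some alternatives took in the other 18-month arrays too. Normexp background correction (offset 50) and quantile normalisation in limma 3.58.1 (R 4.3.3) were run over all 19 arrays. Features had to be above background on at least 4 of the 19, which the arrays that chose the members could meet. Benjamini-Hochberg adjustment was over all features kept, with a threshold of 0.05. A fit with 1 coefficient per genotype gave the genotype F test, and class was fitted on genotype means. Scan period was fitted within genotype. The labels speak of biological samples of several root ends, but pair no samples. The p-values for genotype and scan period measure the spread between arrays. Those of the main class fit measure the spread between genotype means. The fits were tested on simulated data. Alternatives changed the floor, centring, detection limit, background correction, filter, table and arrays. The planned gene lists could not be formed without gene names.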

Additional observations from a re-analysis of the deposited data

Results flagged for a closer look

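Dixon's test at the 95% level set an array apart from the rest of its group in 11 of 90 comparisons. The groups were the fast 18-month, the slow 18-month and the 5-month arrays. Chance meets that level in about 1 of 20 groups, but the 11 cannot be set against this rate. The comparisons share arrays, and each group holds arrays that chose the members. Features bright on the qualifying 18-month arrays can leave an unused array low beside them, so nothing is read from the count. The 11 rest mostly on array 1 of genotype 15 and array 2 of genotype 76. The members' median level on array 2 of genotype 76 was -6.04, where the next lowest slow 18-month array had -3.42. On the same array Spruce_05358 and Spruce_30530 both read -6.04, with next values of -2.41 and -3.38, and Spruce_04434 read -4.74 with a next value of -1.72. On the only array of genotype 15, Spruce_22356, Spruce_22416 and Spruce_05358 were at the floor, which is -6.12 there, with next fast values of -3.67, -2.01 and -2.33. Spruce_16820 read -5.52 there, with a next value of -2.78, and Spruce_13813 read -5.93, with a next value of 0.23. Spruce_10152 read -6.24 on array 2 of genotype 61, where the next slow array had -3.74. Among the 5-month arrays, Spruce_04243 read -2.80 in genotype 20, and the next highest had -5.80.

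Spruce_13813 moved in opposite directions in 2 genotypes: every 18-month array of genotype 20 lay below its 5-month array (difference -1.50), while every 18-month array of genotype 35 lay above. The difference between the genotypes was not tested.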

How the results depend on the processing

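No paired analysis was possible because the classes tested hold different genotypes and the labels give no replicate number that pairs them; the age difference, which has no test, is already taken within genotype. The members' median age difference stayed above 1 under every alternative run, but the same arrays chose the members, so nothing is read from this. Only the 3.09 in genotype 35 alone moved beyond the spread of the genotypes, and the value was 1.48 to 2.47 when single arrays were left out. In the authors' deposited table the members had 1.43, no higher than the 1.51 of all candidates. The list itself varied: it kept 48 to 82 members without single arrays, 51 without the 2 arrays matched to the other age, and 53, 40 and 55 from genotypes 20 and 35, 20 and 52, and 35 and 52. For genotype, the authors' table called 672 features and 34 members, all 8 genotypes 92 and 5, and the fit without genotype 76 called 48 and 3. Leaving out single arrays gave 0 to 2865 features and 0 to 26 members. Members with an unadjusted p under 0.05 for genotype numbered 62 in the table (15.7% of all features), 60 over all 8 genotypes (15.3%), 22 with scan period as a term (3.58%), and 23 to 53 without single arrays (3.40% to 38.0%). For class, 3 features passed in the table and 1 with scan period and genotype as a random block, and without single arrays 0 to 0. For scan period the table called 2 features and 1 member, and leaving out single arrays gave 0 to 1 features and 0 members. The causes were not tested. Most members are near background, so signal over background limits every call, and the single 5-month arrays of genotypes 20 and 35 have no repeat.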
